A study of Mus musculus with 6 samples.

Results

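The 10 genes described here encode the enzymes that build fatty acids in the cytosol and then lengthen and desaturate them: Fasn, Acaca, Acacb, Acly, Scd1, Scd2, Elovl5, Elovl6, Fads1 and Fads2. They are known targets of the transcription factor SREBP1. A gene was measured by an array feature that the platform annotation assigns to its symbol alone, and by the feature with the highest mean over the 6 arrays where there were several. This found 9 of the 10 genes, among 30142 genes with such a feature. The feature of Scd2 also lists the microRNA gene Mir5114, so no value is given for Scd2. All 9 passed the filter on low signals (a signal over the array's median on 3 arrays or more), as did 18334 genes and 33334 of the 65956 features with values.

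Soleus, a calf muscle with many slow fibres, was taken from 6 male mice aged 39 to 41 weeks, from both legs, and 1 Affymetrix array was made per mouse. The series title calls the controls littermates. Control mice (n = 3) carry the label wild type, and the labels do not say whether they held a floxed allele or the Cre transgene. The cKO mice (n = 3) carry the label DMP1 Cre Mbtps1 knockout: a Cre recombinase under regulatory sequence of Dmp1, a gene best known from osteocytes of bone, was used to delete Mbtps1. The comparison asks what muscle RNA looks like when this protease is lost from cells with Dmp1-driven Cre, which need not be muscle fibres. Mouse numbers fell in a low range (715, 716 and 733, which are Control 1, Control 2 and cKO 1) and a high range (776, 779 and 780, which are Control 3, cKO 2 and cKO 3). The labels do not say what the ranges stand for.

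Fatty acid synthesis starts from citrate, which ATP citrate lyase splits into cytosolic acetyl-CoA. Acetyl-CoA carboxylases turn this into malonyl-CoA, and fatty acid synthase joins the units into palmitate. Elongases of the endoplasmic reticulum add further carbons, and desaturases put in double bonds. Site-1 protease, the product of Mbtps1, makes the first of the cuts that free SREBP factors from the membrane, after the escort protein SCAP has brought them to the Golgi. In resting muscle the pathway is known to be far less active than in liver or fat, and malonyl-CoA serves there mainly as a brake on the entry of fatty acids into mitochondria.

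RefSeq promoters on build GRCm38.p6 (from 250 bases before to 50 bases after the start) were at hand for 7 of the 10 genes. Those of Fasn, Acly and Elovl5 are shown because Fasn and Acly had nearly the same order over the arrays, while Elovl5 followed another. Capitals mark matches, on either strand, to the CCAAT box (CCAAT), the E-box (CACGTG) and the GC box (GGGCGG). The Fasn promoter lies on the minus strand at chr11:120824498-120824797, that of Acly on the minus strand at chr11:100527951-100528250, and that of Elovl5 on the plus strand at chr9:77917115-77917414.
Fasn: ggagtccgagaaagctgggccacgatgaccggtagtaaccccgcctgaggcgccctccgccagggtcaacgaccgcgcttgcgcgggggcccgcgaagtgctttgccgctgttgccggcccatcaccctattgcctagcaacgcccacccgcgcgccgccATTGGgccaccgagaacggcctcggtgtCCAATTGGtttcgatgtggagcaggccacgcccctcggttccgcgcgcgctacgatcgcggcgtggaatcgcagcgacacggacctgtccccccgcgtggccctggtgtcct
Acly: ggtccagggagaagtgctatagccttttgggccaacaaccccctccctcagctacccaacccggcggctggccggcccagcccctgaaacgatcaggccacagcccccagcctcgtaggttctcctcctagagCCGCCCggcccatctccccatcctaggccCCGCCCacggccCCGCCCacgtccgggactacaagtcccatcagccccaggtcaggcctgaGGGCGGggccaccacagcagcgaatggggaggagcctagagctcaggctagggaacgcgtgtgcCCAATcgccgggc
Elovl5: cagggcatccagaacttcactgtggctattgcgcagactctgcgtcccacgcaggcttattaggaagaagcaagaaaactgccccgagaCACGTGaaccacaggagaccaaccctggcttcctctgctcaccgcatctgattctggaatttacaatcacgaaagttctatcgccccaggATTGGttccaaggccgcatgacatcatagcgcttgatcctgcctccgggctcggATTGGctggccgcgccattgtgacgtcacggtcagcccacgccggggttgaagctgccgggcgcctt
The Fasn promoter held 3 CCAAT matches, of which 2 overlap on opposite strands, and no E-box or GC box. Acly had 4 GC boxes and 1 CCAAT box, and Elovl5 had 2 CCAAT boxes and 1 E-box. Among 32851 promoters of the same length, 37.4% held a CCAAT box, 35.7% a GC box and 7.15% an E-box. The sterol regulatory element in the form TCACNCCAC was searched on both strands too. It was in 1.24% of all promoters and in none of the 7 windows of these genes, which says only that these letters are not in these windows.

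No enzyme gene of the set passed the test between cKO and Control soleus. By limma with Benjamini-Hochberg adjustment over all features, 0 of 9 had an adjusted p under 0.05, as did 0% of the features tested. At an unadjusted p under 0.05 there were 0 of 9 genes, against 4.50% of all features. The count was 1 with array weights, with the replicate block and without cKO 2, and 2 without Control 3. Over all features it was 1501 of 33334 in the main fit, 4256 with array weights and 1322 with the replicate block. Without cKO 2 it was 1016 of 32437 features, and without Control 3 it was 3065 of 32505. The groups did not overlap for 0 of 9 genes, against 11.0% of all features. Differences (cKO minus Control) were above 0 for 7 of 9 genes, with a median of 0.13 log2 units, while 65.8% of all features were above 0 and their median was 0.07. Without cKO 1, 7 of 9 were above 0 with a median of 0.04, against 47.1% and a median of -0.014 over all features. Without cKO 2, 8 of 9 were above 0 with a median of 0.25, against 69.95% and a median of 0.11 over all features. After quantile normalization 7 of 9 stayed above 0 with a median of 0.027, against 49.1% and a median of -0.0038 over all features. Limma's array weights gave cKO 2 the highest weight (4.01) and cKO 1 the lowest (0.254). With them 2 of 9 were above 0 with a median of -0.0090, against 52.1% and a median of 0.012 over all features.

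The array of cKO 1 had a median of 4.37, against 4.004 to 4.13 on the other 5, so every level below is read beside that offset. Mbtps1 itself stood at 7.39, 7.05 and 7.24 in Control 1 to 3 and at 7.77, 7.44 and 7.11 in cKO 1 to 3. Where its feature lies relative to the deleted part is not given in the sources used here, so it does not check the labels. The defining genes of skeletal muscle were near the top of the scale, with creatine kinase Ckm at 19.3 to 19.6 and slow myosin Myh7 at 19.2 to 19.4 over the 6 arrays. None of the 9 genes was near that ceiling. In whole muscle, fewer cells of a type and less RNA per cell cannot be told apart.

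**Figure D1:**
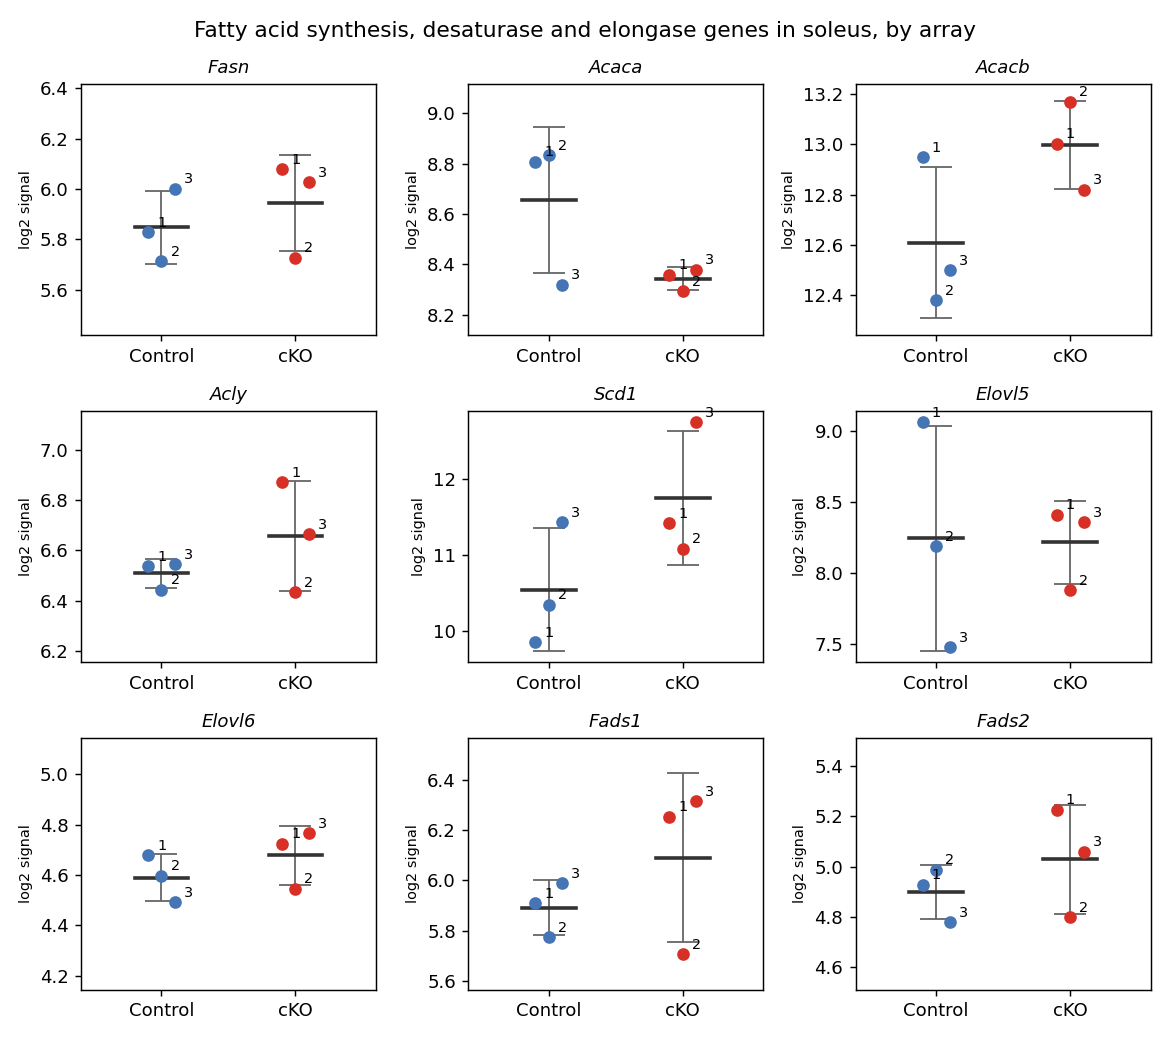
Log2 signal (vertical axes, each spanning at least 1 unit) of the 9 genes in Control (blue) and cKO (red) soleus, 1 point per array labelled with its replicate number; horizontal bars are group means and error bars SDs (n = 3). The groups overlap in every panel, and Scd1 covers the widest range, from 9.85 in Control 1 to 12.7 in cKO 3.

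Scd1 had the largest difference of the set. It encodes stearoyl-CoA desaturase 1, which turns saturated into monounsaturated fatty acids. On the log2 scale Scd1 stood at 9.85, 10.3 and 11.4 in Control 1 to 3 and at 11.4, 11.1 and 12.7 in cKO 1 to 3. Control 3 lay above cKO 1 and cKO 2, so the groups overlapped, and cKO 3 stood 1.31 above the next array. The Control mean was 10.5 ± 0.81 and the cKO mean 11.7 ± 0.88 (SD, n = 3 each). The difference of 1.21 log2 units (SE 0.56, 95% interval -0.13 to 2.54) corresponds to a 2.31-fold ratio with an interval from 0.91 to 5.82. It did not pass the test (limma, adjusted p = 0.999). Only 0.837% of all features differed by as much in either direction, and 3.96% varied as much within the groups (SD 0.845). The low mouse numbers taken alone gave 1.32, and the high ones alone 0.48. The difference was 0.71 without cKO 3, 0.86 without Control 1 and 1.65 without Control 3.

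A second feature of Scd1, whose signal was 4.46 to 5.70 log2 units lower, gave 5.39, 5.65 and 6.23 in Control 1 to 3 and at 6.75, 6.02 and 7.04 in cKO 1 to 3. Here the groups overlapped through cKO 2 and Control 3 alone. Its difference was 0.85 (SE 0.33, 95% interval 0.067 to 1.63, limma, adjusted p = 0.999). Both features placed Control 1 lowest, Control 2 next and cKO 3 highest. Scd3, a desaturase gene close to Scd1 on the chromosome, did not follow it: its levels were 5.63, 5.91 and 5.52 in Control 1 to 3 and at 5.83, 5.54 and 5.81 in cKO 1 to 3 (difference 0.04, SE 0.16, with a sign that turned after quantile normalization and after median centring). The feature of Scd4 was below the filter.

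Acetyl-CoA carboxylase is made in a pair of forms. The genes of these forms differed in opposite directions, and both 95% intervals include 0. Acaca encodes the cytosolic form that feeds synthesis. It stood at 8.81, 8.83 and 8.32 in Control 1 to 3 and at 8.36, 8.29 and 8.38 in cKO 1 to 3. Control 1 and Control 2 were above all other arrays, while Control 3 lay among the cKO arrays. The difference was -0.31 (SE 0.20, 95% interval -0.78 to 0.16, limma, adjusted p = 0.999). Among the low mouse numbers it was -0.46, and among the high 0.016. Acaca was at or below -0.22 under all 15 alternatives of processing. Its unadjusted p was under 0.05 in 2 of them.

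Acacb encodes the form at the mitochondrial surface, whose malonyl-CoA limits fatty acid oxidation in muscle. Its signal was 12.9, 12.4 and 12.5 in Control 1 to 3 and at 13.0, 13.2 and 12.8 in cKO 1 to 3. Only Control 1 reached into the range of the cKO arrays. The difference was 0.39 (SE 0.23, 95% interval -0.16 to 0.93, limma, adjusted p = 0.999). Low mouse numbers alone gave 0.34 and high ones 0.50, and the difference was between 0.27 and 0.56 under the alternatives. The array with the highest Acacb, cKO 2, was also the array with the most fast fibre signal. There the mean of 8 fast fibre genes was 16.5, against 13.8 to 14.9 on the other arrays, and fast myosin Myh4 was 16.9 against 11.7 to 13.7. On the other arrays the orders differed. Control 1 had the lowest fast fibre mean (13.8) with Acacb at 12.9, and Control 2 had a mean of 14.9 with the lowest Acacb (12.4). The part of the fast fibre signal in the Acacb difference was not tested. Without cKO 2 the difference was 0.30.

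Acly and Fasn, at the start and the end of palmitate synthesis, differed little. ATP citrate lyase, Acly, was at 6.54, 6.44 and 6.55 in Control 1 to 3 and at 6.87, 6.43 and 6.66 in cKO 1 to 3. Fatty acid synthase, Fasn, was at 5.83, 5.71 and 6.001 in Control 1 to 3 and at 6.08, 5.73 and 6.03 in cKO 1 to 3. In both genes cKO 1 and cKO 3 were the highest arrays and cKO 2 was among the lowest 2. Acly differed by 0.15 (SE 0.16, 95% interval -0.23 to 0.53, limma, adjusted p = 0.999) and Fasn by 0.10 (SE 0.16, 95% interval -0.28 to 0.47, limma, adjusted p = 0.999). Without cKO 1 the difference of Acly was 0.04 and that of Fasn 0.03, and without cKO 2 they were 0.26 and 0.21. Fasn was also at 0.03 without Control 2, 0.06 without cKO 3 and 0.17 without Control 3. The intervals leave out a doubling or a halving of either signal on this scale. Array signals can understate changes of genes of low signal, and Fasn lay only 1.69 to 2.02 log2 units above the array medians. For Fasn the difference was 0.31 among mice of the low numbers and -0.12 among those of the high. For Acly these were 0.38 and 0.0029.

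The front-end desaturases Fads1 (delta-5) and Fads2 (delta-6), which make polyunsaturated fatty acids, are neighbours on the chromosome. Fads1 was at 5.91, 5.77 and 5.99 in Control 1 to 3 and at 6.25, 5.71 and 6.31 in cKO 1 to 3. Its cKO arrays thus held both the highest values and the lowest one. Fads1 differed by 0.20 (SE 0.20, 95% interval -0.27 to 0.67, limma, adjusted p = 0.999). Without cKO 2 it was 0.39, without cKO 1 it was 0.12, and without cKO 3 it was 0.09. Among low mouse numbers the Fads1 difference was 0.41, and among high ones 0.02. Fads2 was at 4.93, 4.99 and 4.78 in Control 1 to 3 and at 5.23, 4.80 and 5.06 in cKO 1 to 3, a difference of 0.13 (SE 0.15, limma, adjusted p = 0.999). The Fads2 difference was 0.03 without cKO 1, 0.07 without Control 3 and 0.25 without cKO 2. A second Fads2 feature, 0.19 to 0.47 log2 units dimmer, differed by -0.05 (SE 0.14). The features of Fads2 thus disagreed in sign, and neither difference exceeded its error.

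Elovl5, which elongates polyunsaturated fatty acids, had almost the same mean in the groups, 8.24 ± 0.79 for Control and 8.22 ± 0.29 for cKO (SD, n = 3 each). Its levels were 9.06, 8.19 and 7.48 in Control 1 to 3 and at 8.41, 7.88 and 8.36 in cKO 1 to 3. Control held the highest and the lowest array. The difference was -0.03 (SE 0.41, 95% interval -0.995 to 0.94, limma, adjusted p = 0.999). It was -0.21 for low and 0.64 for high mouse numbers, 0.38 without Control 1 and -0.41 without Control 3. Elovl5 varied within groups (SD 0.599) more than all but 9.52% of features. As deposited, the mean of 6 endothelial genes was also highest in Control 1 (10.2) and lowest in Control 3 (9.15), with 9.60 in Control 2 and 9.40, 9.25 and 9.40 in cKO 1 to 3. After median centring Control 1 was still the highest array for this mean, but cKO 1 was the lowest. Its part in the Elovl5 values was not tested. Elovl6, which elongates palmitate to stearate, was the steadiest gene of the set (SD 0.106). It was at 4.68, 4.60 and 4.49 in Control 1 to 3 and at 4.73, 4.55 and 4.77 in cKO 1 to 3, only 0.35 to 0.76 above the array medians. The difference was 0.09 (SE 0.12, 95% interval -0.21 to 0.39, limma, adjusted p = 0.999). It was 0.04 without Control 3 or cKO 3, 0.13 without Control 1 and 0.16 without cKO 2.

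**Figure D2:**
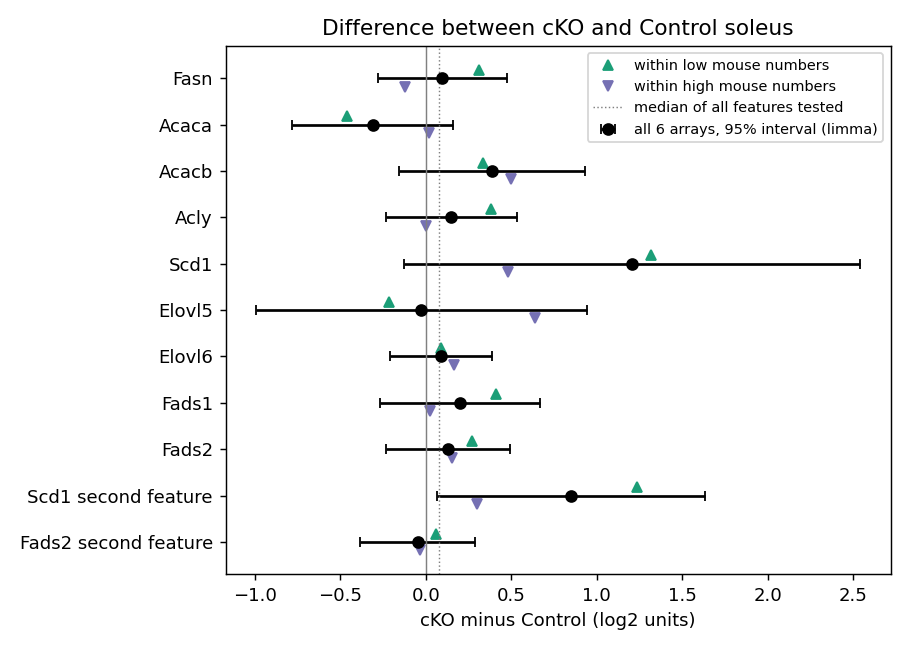
Difference between cKO and Control (horizontal axis, log2 units) for the 9 genes and the second features of Scd1 and Fads2. Black points with bars are limma estimates with 95% intervals over 6 arrays, triangles are differences within the low (up) and high (down) mouse numbers, and the dotted line is the median of all features tested (0.07). The intervals of the features used for the 9 genes include 0. Their triangles lie on opposite sides of 0 for Fasn, Acaca and Elovl5. The interval of the second Scd1 feature (0.067 to 1.63, limma, adjusted p = 0.999) lies above 0. The triangles of the second Fads2 feature lie on opposite sides of 0 (0.060 in low and -0.036 in high numbers).

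The genes varied over the arrays in more than a single pattern. As deposited, cKO 1 was among the 2 highest arrays for 7 of 9 genes and cKO 3 for 6, while cKO 2 was among the 2 lowest for 7. For cKO 1 this changed once the offset of its array was removed: after median centring it was among the 2 highest for 1 gene, and after quantile normalization for 2. For cKO 3 it did not, with 7 and 6 genes. After median centring cKO 3 was the highest array for 6 of 9 genes, namely Fasn, Acly, Scd1, Elovl6, Fads1 and Fads2, and for 5 after quantile normalization. Over the 6 arrays as deposited, Fads1 followed Fasn (Pearson r = 0.92, n = 6 arrays) and Acly (r = 0.87), and Fads2 followed Elovl6 (r = 0.83). Acaca ran against Scd1 (r = -0.74), and Elovl5 did not follow Fasn (r = -0.05). These values are descriptions of 6 arrays that share the offset of cKO 1, and they carry no test.

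Markers of other cells were also high on cKO 3. After median centring, the mean of 6 macrophage genes was 8.20 in cKO 3 against 6.62 to 7.42 on the other arrays, and the mean of 9 tendon genes was 7.48 in cKO 3, 7.33 in cKO 2 and 6.84 in cKO 1 against 5.69 to 6.57 in Control. The mean of 7 adipocyte genes was 6.54 in cKO 3 and 6.40 in cKO 1, against 6.06 to 6.24 on the other arrays. As deposited, 5 of 7 adipocyte genes had a difference above 0, and the list mean ran from 6.14 to 6.25 in Control and from 6.22 to 6.72 in cKO. The fat hormone gene Adipoq was at 5.50, 5.75 and 5.87 in Control 1 to 3 and at 6.74, 5.60 and 6.13 in cKO 1 to 3, and the lipid droplet gene Cidec at 4.59, 5.20 and 5.25 in Control and at 5.61, 5.36 and 5.88 in cKO. Fabp4, the fatty acid binding protein of fat and capillary cells and the list's brightest gene, was at 14.4, 13.9 and 13.9 in Control and at 14.2, 13.8 and 13.9 in cKO (difference -0.06, SE 0.24). Retn, which encodes the fat hormone resistin, differed by -0.14 (SE 0.16). The droplet coat gene Plin1 was at 4.69, 4.79 and 4.76 in Control and at 5.32, 4.91 and 5.10 in cKO. Fat cells and macrophages are known to express Scd1 and Fasn, and the part of these markers in the Scd1 values was not tested. All 6 macrophage genes had differences above 0, with Lyz2 at 10.2, 11.8 and 10.9 in Control and at 10.7, 10.6 and 12.1 in cKO.

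The remaining marker lists are given by their counts. Ucp1, which defines brown fat, was below the median of every array (3.16 to 3.45), and 1 of the 4 other brown fat genes tested, Cpt1b, which muscle also expresses, had a difference above 0. Schwann cell genes, with 4 of 6 above 0, had array means of 5.87 to 6.09 in Control and 5.95 to 6.14 in cKO. Of 8 skeletal muscle genes 7 were above 0 with a median of 0.04, and of 8 fast fibre genes 4. All 6 endothelial genes were below 0, with a median of -0.28, and all 9 tendon genes above 0, with a median of 1.27. The endothelial list mean differed by -0.49 among low mouse numbers and by 0.17 among high ones, and the tendon mean by 1.38 and 0.78.

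**Figure D3:**
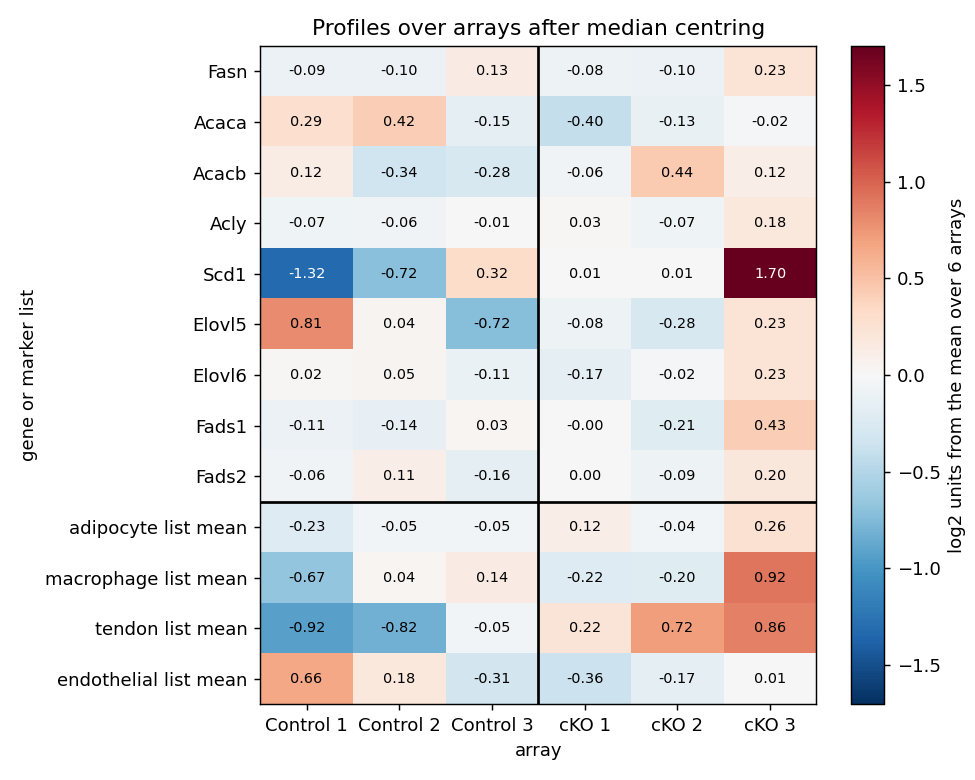
Log2 signal of each gene (rows above the line) and mean of each marker list (rows below it) on each array, after median centring and relative to its mean over the 6 arrays; colour and printed numbers are log2 units. Scd1 runs from -1.32 in Control 1 to 1.70 in cKO 3, and cKO 3 is also the highest array for the adipocyte, macrophage and tendon lists.

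Beyond the 10 enzymes, 69 of 84 other genes of the pathway and its control were tested. None passed an adjusted p of 0.05 by limma. Differences were above 0 for 48 of 69 with a median of 0.07, the same as over all features, and after quantile normalization for 32 with a median of -0.021. At an unadjusted p under 0.05 there were 4 of 69, a share near the 4.50% of all features: Scap, Mid1ip1 and Cyb5r3 with differences above 0 and Hacd4 below 0. After quantile normalization there were 2. The groups did not overlap for 12 of 69 genes, or 17.4%, against the 11.0% of all features given above.

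In the list of SREBP1 control, 10 of 11 genes had differences above 0, with a median of 0.21. After quantile normalization these were 8 of 11 and 0.07. The list is wider than regulators of SREBP1, as it holds Srebf2, Mlxipl and the deleted gene Mbtps1 itself (difference 0.21). Without cKO 1 the median was 0.05. Scap, the escort of SREBP factors, was at 6.82, 6.60 and 6.95 in Control 1 to 3 and at 7.25, 7.31 and 7.38 in cKO 1 to 3. All cKO arrays lay above all Control arrays. The difference was 0.52 (SE 0.16, 95% interval 0.15 to 0.89, limma, adjusted p = 0.999). It was 0.54 for low and 0.39 for high mouse numbers, and its unadjusted p stayed under 0.05 in 15 of 15 alternatives, with differences of 0.38 to 0.60. The adjusted p of Scap was never below 0.263. Rxra, partner of the LXR receptors, differed by 0.31 (SE 0.16), Mlxipl, which encodes the sugar-responsive factor ChREBP, by 0.41 (SE 0.24), and Srebf2 by 0.24 (SE 0.16). The feature of Srebf1 lists a microRNA gene too and is not used here.

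Genes that set malonyl-CoA had a median of 0.29 with 10 of 11 above 0 (0.19 with 8 of 11 after quantile normalization). The median was 0.18 without Control 1 and 0.14 without cKO 1. Mid1ip1, whose product activates acetyl-CoA carboxylase, was at 6.33, 6.18 and 6.47 in Control 1 to 3 and at 6.77, 6.59 and 6.94 in cKO 1 to 3. The groups did not overlap, and the difference was 0.44 (SE 0.16, limma, adjusted p = 0.999). Its unadjusted p was under 0.05 in 8 of 15 alternatives. Its relative Thrsp differed by 0.29 (SE 0.25). Of the AMP-activated kinase, which inhibits the carboxylase, the catalytic subunit genes Prkaa2 and Prkaa1 differed by 0.57 (SE 0.31) and 0.32 (SE 0.20) and the muscle subunit Prkag3 by 0.42 (SE 0.22). Its subunit gene Prkag1 went the other way, by -0.35 (SE 0.41). For Prkaa2 the difference was 0.89 among low mouse numbers and -0.04 among high ones.

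Of the other elongation and desaturation genes, 9 of 11 were above 0 with a median of 0.19 (7 of 11 and 0.10 after quantile normalization, and a median of 0.06 with no filter on low signals). Cyb5r3, the reductase that passes electrons to the desaturases, was at 7.21, 7.03 and 7.44 in Control 1 to 3 and at 7.73, 7.52 and 8.26 in cKO 1 to 3. As for Scd1, cKO 3 was the highest array, but here the groups did not overlap (difference 0.61, SE 0.24, limma, adjusted p = 0.999). The dehydratases of the elongation cycle differed in both directions. Hacd4 was at 5.09, 5.21 and 5.24 in Control and at 4.92, 4.81 and 4.88 in cKO, without overlap (difference -0.31, SE 0.12, limma, adjusted p = 0.999). Hacd3 differed by 0.36 (SE 0.16) and Hacd1, the form known from muscle, by 0.18 (SE 0.18), also without overlap. For Hacd1 the groups nearly met, with Control 3 at 9.023 and cKO 3 at 9.026. Fads6 differed by -0.38 (SE 0.21). The groups did not overlap for 4 of the 11 genes in this list, or 36.4%, against 11.0% of all features.

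The remaining lists lay near or below the median of all features. For the supply of acetyl-CoA and NADPH, 3 of 6 genes were above 0 with a median of -0.04, and none after quantile normalization. Acss2, which makes acetyl-CoA from acetate, differed by -0.33 (SE 0.26), the malic enzyme gene Me1 by -0.13 (SE 0.25), Idh1 by -0.13 (SE 0.23), the citrate carrier Slc25a1 by 0.07 (SE 0.16) and Pgd by 0.07 (SE 0.15). Mitochondrial fatty acid synthesis had 4 of 8 genes above 0 and a median of -0.0048, with Oxsm at 0.24 (SE 0.18), Acsf3 at 0.16 (SE 0.13), Mcat at 0.21 (SE 0.31) and Cbr4 at -0.17 (SE 0.16). In acyl-CoA and triglyceride assembly 7 of 12 were above 0 with a median of 0.04, which turned to -0.07 after quantile normalization. There Gpam, the first enzyme of triglyceride synthesis, was at 13.0, 13.2 and 12.8 in Control 1 to 3 and at 13.6, 13.6 and 13.3 in cKO 1 to 3. Its groups did not overlap (difference 0.49, SE 0.21, limma, adjusted p = 0.999). Agpat2 differed by 0.27 (SE 0.17), Gpat3 by 0.16 (SE 0.14) and Gpat4 by -0.26 (SE 0.22). In the sterol branch of SREBP targets, 5 of 10 were above 0 with a median of 0.01, which turned to -0.08 after quantile normalization. Dhcr7 differed by 0.17 (SE 0.11) and Lss by 0.13 (SE 0.11), with Idi1 at -0.08 (SE 0.16) and Mvd at 0.08 (SE 0.19).

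**Figure D4:**
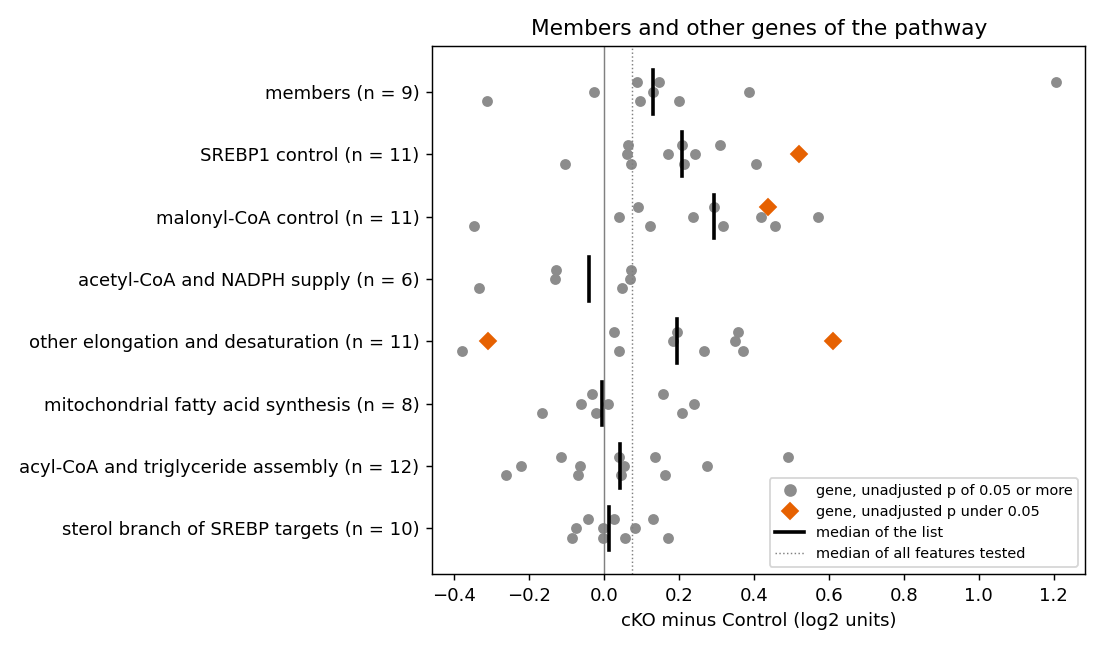
Difference between cKO and Control (horizontal axis, log2 units) of each tested gene, grouped by list, with the number of genes per list; diamonds are genes at an unadjusted p under 0.05, black bars list medians and the dotted line the median of all features. The 9 enzyme genes spread from -0.31 to 1.21 around a median of 0.13, and the 4 diamonds are Scap, Mid1ip1, Hacd4 and Cyb5r3.

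The genes most like Fasn and Scd1 over the 6 arrays were sought among 18333 others, on values as deposited, which hold the offset of cKO 1. For Fasn they were Zfp248 (Pearson r = 0.995), Gm23145 (0.988), Mob3c (0.981), Bcl9 (0.979) and Id4 (0.975), and 135 genes reached an r of 0.9. All those named for Fasn were, like Fasn, highest in cKO 1. For Scd1 they were Lrrn4cl (0.996), Gm22571 (0.993), Nacc1 (0.989), Itgam (0.987) and Lrrc17 (0.982), and 233 genes reached 0.9. Itgam, an integrin subunit known from macrophages and other myeloid cells, was at 4.58, 4.80 and 5.05 in Control 1 to 3 and at 5.16, 4.96 and 5.44 in cKO 1 to 3. Such likeness over 6 arrays describes these arrays and carries no test.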

How the data were processed

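The authors deposited 1 value per feature and array, read here as log2 signals from their range (1.92 to 19.9). Background correction, normalization, software, build and log base are not given in the sources used here. Of 72688 features, 6732 held no value and were left out. Gene names come from the platform annotation, and other genes than the 10 were updated by Entrez identifier (RefSeq, GRCm38.p6). Features with several symbols name no gene here. Features above the median of their array on at least 3 arrays were tested across all features with limma 3.58.1 in R 4.3.3 (lmFit, eBayes with intensity trend, two-sided), with Benjamini-Hochberg adjustment. The fit was tested on simulated data. Plots and tables were made in Python 3.11.15 (pandas 2.3.3, matplotlib 3.10.9). The p-values measure the spread between mice, 1 array each, and the number of arrays limits precision.

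The members, lists and tests were chosen with earlier results of these data known, and lists are given by counts and medians only. Named besides the 10 genes were, from each pathway list, the 4 with the smallest p and a few fixed genes, from marker lists up to 4 of the highest signal, and the 5 genes most like Fasn and Scd1. No such match was possible for Scd2. Myh4, Ucp1, Retn and Prkag1 were named after their values were seen, and Mbtps1 as the deleted gene. Alternatives were quantile normalization, median centring, other filters, no trend, array weights, the replicate number or number range as a block, each array left out, and the mean of a gene's features. Replicate numbers were not taken as pairs in the main fit. Deviations of same-numbered mice correlated at 0.13, -0.20 and 0.21, which cannot show whether the mice were paired.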

Additional observations from a re-analysis of the deposited data

How the results depend on the processing

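Under 15 alternatives, 0 of 133 values of the 9 genes had an adjusted p under 0.05 in limma. Of 608 values of the 41 genes named by rule among members and pathway lists, 0 did. The count of features past that threshold was 0 except without Control 3, where it was 14 (range 0 to 14 with each array left out), and 1501 features had an unadjusted p under 0.05. The replicate block left every estimate as it was and brought Scd1, at the same difference of 1.21, under an unadjusted p of 0.05, its lowest of all alternatives, with an adjusted p of 0.996 in limma (lowest over its alternatives 0.389). With array weights 2 of the 9 genes were above 0, and the signs of Fasn (-0.013), Acly (-0.0012), Elovl6 (-0.0090), Fads1 (-0.00059) and Fads2 (-0.024) turned, as did those of Pgd (-0.060), Mcat (-0.11), Mvd (-0.073), Slc25a1 (-0.081) and Scd3 (-0.052). With the number range as a block Elovl5 turned to 0.21. Quantile normalization turned Pgd (-0.043), Mvd (-0.057), Slc25a1 (-0.00063) and Scd3 (-0.052) and the median of the 69 pathway genes (-0.021), and median centring turned Scd3 (-0.018). With each array left out in turn, signs were not stable for Elovl5 (-0.41 to 0.38), Idh1 (-0.34 to 0.0090), Me1 (-0.33 to 0.037), Pgd (-0.0049 to 0.17), Mcat (-0.10 to 0.37), Idi1 (-0.17 to 0.00093), Mvd (-0.018 to 0.26), Slc25a1 (-0.059 to 0.19) and Scd3 (-0.044 to 0.15). The cause was not tested. Scd1, Acacb and Acaca kept their signs under all 15 alternatives, though Acaca was at 0.016 within the high mouse numbers. Scd1 was at 0.71 to 1.65 and its unadjusted p was under 0.05 in 3 of 15 alternatives. The dim genes Elovl6 and Fads2 lay closest to the array medians, and with the filter at the 75th percentile they were not tested.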
